A study of Mus musculus with 4 samples.

Results

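The natriuretic peptide system was followed through 7 genes, of 21728 protein-coding genes of the GENCODE annotation: the ligand genes *Nppa*, *Nppb* and *Nppc*, the receptor genes *Npr1*, *Npr2* and *Npr3*, and *Corin*. They were taken by name, not by a measured value, but with earlier results of these data known. The data were ATAC-Seq libraries of nuclei from whole hearts of male C57BL/6 mice aged 8 to 12 weeks, and every animal carried both the NuTRAP reporter and Cdh5-Cre. NuTRAP is a GFP reporter that Cre recombinase turns on, and here the promoter of *Cdh5*, the gene of VE-cadherin, drove Cre, so GFP marked nuclei of cells of endothelial descent. Flow cytometry separated GFP+ (EC) from GFP- (non-endothelial) nuclei, the latter a mixture of cardiomyocytes, fibroblasts and other cells, with 2 replicates of each and 100 to 50000 nuclei per reaction. ATAC-Seq uses Tn5 transposase to cut and tag DNA where chromatin is open, and a peak is a stretch where such cuts pile up.

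For each population the authors provided 1 peak list made from both replicates, with 78912 peaks in GFP- and 65008 in GFP+. A peak's area is the caller's significance curve summed over the peak, and it grows with both height and length. As the lists were called separately, each area was turned into a rank, the percent of peaks of the same list with a smaller area, and a rank difference is GFP+ minus GFP-. A TSS peak overlaps the 250 bp to either side of the 5′ end of the gene as annotated, and a peak counted as shared when at least 1 bp overlapped a peak of the other list. The lists carry no value per replicate and no read depth, so differences between the populations have no replicate check and no p-value is given. All coordinates are mm10. A rank describes accessibility and not expression, and in these bulk populations open chromatin in few nuclei cannot be told apart from weaker opening in many.

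Atrial natriuretic peptide, encoded by *Nppa*, and B-type natriuretic peptide, encoded by *Nppb*, are hormones of cardiac muscle that lower blood volume and pressure, and *Nppb* together with *Nppa* is a standard readout of cardiac stress. C-type natriuretic peptide, encoded by *Nppc*, acts locally and is made among others by endothelial cells. *Npr1* encodes the guanylyl cyclase receptor for the atrial and B-type peptides, *Npr2* the guanylyl cyclase receptor for the C-type peptide, and *Npr3* the clearance receptor, which lacks a cyclase domain, takes the peptides up and also marks the endocardium, the inner lining of the heart. *Corin* encodes a membrane-bound serine protease of cardiomyocytes that cleaves the *Nppa* precursor into the active hormone.

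The promoters of the ligand genes are shown first, because the pair of neighbours *Nppa* and *Nppb* differed in whether a peak lay over them. The sequences are the 250 bases before the RefSeq start (GRCm38), at chr4:148000472-148000721 for *Nppa*, chr4:147985650-147985899 for *Nppb* and chr1:86670574-86670823 for *Nppc*. *Nppa* and *Nppb* are read on the plus strand and *Nppc* on the minus strand, each 5′ to 3′. RefSeq places the *Nppb* start at 147985900, downstream of the GENCODE start used for peaks. Capitals mark TATAAA and matches to a fixed set of factor words.
Nppa promoter: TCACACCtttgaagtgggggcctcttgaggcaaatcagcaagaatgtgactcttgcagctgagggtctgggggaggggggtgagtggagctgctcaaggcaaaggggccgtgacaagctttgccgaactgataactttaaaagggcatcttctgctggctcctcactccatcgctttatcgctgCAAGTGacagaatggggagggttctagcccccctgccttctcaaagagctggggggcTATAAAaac
Nppb promoter: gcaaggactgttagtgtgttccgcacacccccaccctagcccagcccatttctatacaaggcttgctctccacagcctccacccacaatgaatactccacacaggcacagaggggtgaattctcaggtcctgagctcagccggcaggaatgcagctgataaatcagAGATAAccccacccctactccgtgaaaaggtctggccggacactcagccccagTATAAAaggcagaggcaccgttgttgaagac
Nppc promoter: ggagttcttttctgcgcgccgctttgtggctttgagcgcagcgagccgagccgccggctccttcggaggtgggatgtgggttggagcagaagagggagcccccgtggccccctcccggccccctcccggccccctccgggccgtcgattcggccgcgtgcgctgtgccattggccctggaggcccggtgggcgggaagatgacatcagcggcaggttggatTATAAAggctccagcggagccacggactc
The word TATAAA, which was added to the search after these sequences had been seen and was read on the gene's strand only, occurred in all 3 ligand promoters and in none of the promoters of the receptor genes and *Corin*, against 7.59% of 32851 RefSeq promoters of this length. Counted back from the RefSeq start, it began at base -9 in *Nppa*, -31 in *Nppb* and -29 in *Nppc*. The *Nppa* promoter further held the T-box word GGTGTGA, on the minus strand at its far end, and the NKX2 word CAAGTG at -66. The *Nppb* promoter held the GATA word AGATAA at -84. Of all promoters, 3.33% had GGTGTGA, 11.6% CAAGTG and 9.99% AGATAA on either strand. Neither the *Nppc* promoter nor those of the receptor genes and *Corin* held any word of the set, which does not bear on whether the factors bind there. No base of the *Nppa* promoter lay in a peak of either list, whereas all 250 bases of the *Nppb* and *Nppc* promoters did in both.

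Of the 7 genes, 6 had a peak at their start in both populations and *Nppa* had none in either. Over all protein-coding genes, 53.8% had such a peak in each list and 42.1% had none in either. Among the 6, *Nppc*, *Npr1* and *Npr3* ranked higher in GFP+ and *Nppb*, *Npr2* and *Corin* lower, where 28.7% of all the genes with such a pair of TSS peaks ranked higher in GFP+. *Nppc* and *Npr3* stood at least 10 points higher in GFP+, which 2.40% of such genes did, and *Npr2* at least 10 points lower, which 8.46% did. The median difference of all such genes was -0.739. For *Nppc*, *Npr2* and *Npr3* the size or direction of the difference depended on how many peaks the caller drew over the start, as given for each gene.

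**Figure D1:**
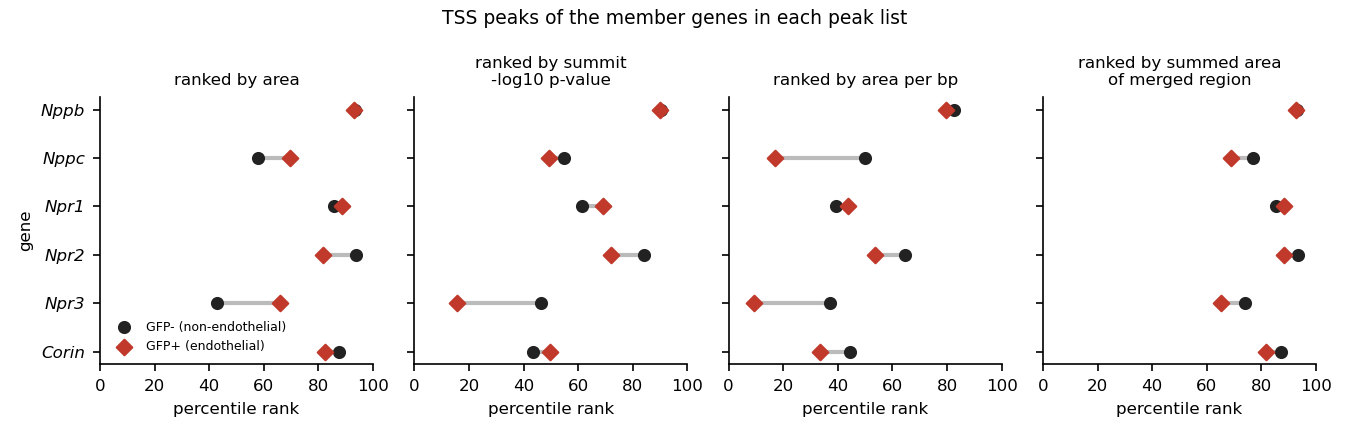
Percentile rank, from 0 to 100 on the x axis, of the TSS peak of the 6 genes that had one, in GFP- (black circles) and GFP+ (red diamonds) nuclei, ranked within each list by area, by the -log10 p-value of the summit, by area per bp and by the summed area of the region at the start. *Nppc* and *Npr3* lie higher in GFP+ only in the area panel, *Npr1* lies higher in GFP+ in all 4 panels, and the symbols of *Nppb* lie within 3 points of each other throughout.

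*Nppa* lies on the plus strand of chromosome 4 from 148000722 to 148002079, 14934 bp downstream of the start of *Nppb* (147985788 to 147987205, same strand). Its whole 1358 bp record was free of peaks in both populations. In GFP-, no peak lay between positions 147988535 and 148003871, a gap of 15335 bp, and in GFP+ the gap from 147988421 to 148003630 was 15208 bp. The nearest peak began 3149 bp after the *Nppa* start in GFP- and 2908 bp in GFP+, and upstream the nearest peak ended 12187 and 12301 bp before it. *Nppa* thereby shared its class with 9150 other genes without a TSS peak in either list, so no gene could be named as most like it. A missing peak means that no stretch reached the caller's smallest area of 200, not that no read fell there, and whether the regions the authors masked touch *Nppa* was not tested. Of 4 genes listed as atrial cardiomyocyte markers, *Nppa*, *Sln* and *Myl7* had no TSS peak in either list and *Myl4* had one at rank 95.2 in GFP- and 95.5 in GFP+. The part of atrial nuclei in the *Nppa* result was not tested.

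*Nppb* presented the opposite picture. A broad peak lay over its start in both populations, from 147985285 to 147987033 in GFP- (1749 bp, area 5261) and from 147985283 to 147987014 in GFP+ (1732 bp, area 4778). The left edges of these peaks differed by 2 bp and their summits by 6 bp, at 86 and 80 bp upstream of the GENCODE start. The peak stood at position 5291 by area in GFP- (rank 93.3) and at position 4510 in GFP+ (rank 93.1), a difference of -0.233. It covered 87.9% of the 1418 bp *Nppb* record in GFP- and 86.5% in GFP+, the largest share among the 7 genes in each list. The other genes with a TSS peak have longer records, from 4281 to 204449 bp. A weaker peak just past the gene, with its summit 2274 bp from the start in GFP- and 2079 bp in GFP+, ranked 44.0 and 37.5.

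The *Nppa* and *Nppb* cluster was examined with 50 kb on either side. It held 14 GFP- peaks and 13 GFP+ peaks, and every one of them overlapped a peak of the other list. The Wilson 95% interval was 78.5 to 100% for GFP- and 77.2 to 100% for GFP+, and such intervals cover counting error only. Over the whole lists, 69.7% of GFP- and 86.6% of GFP+ peaks were shared. Merged across the lists, the peaks formed 12 regions, of which 5 ranked higher and 7 lower in GFP+, with a median difference of -0.324 and a range from -6.48 to 10.1. Over all regions with peaks in both lists, 35.4% ranked higher in GFP+ and the median difference was -1.80.

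**Figure D2:**
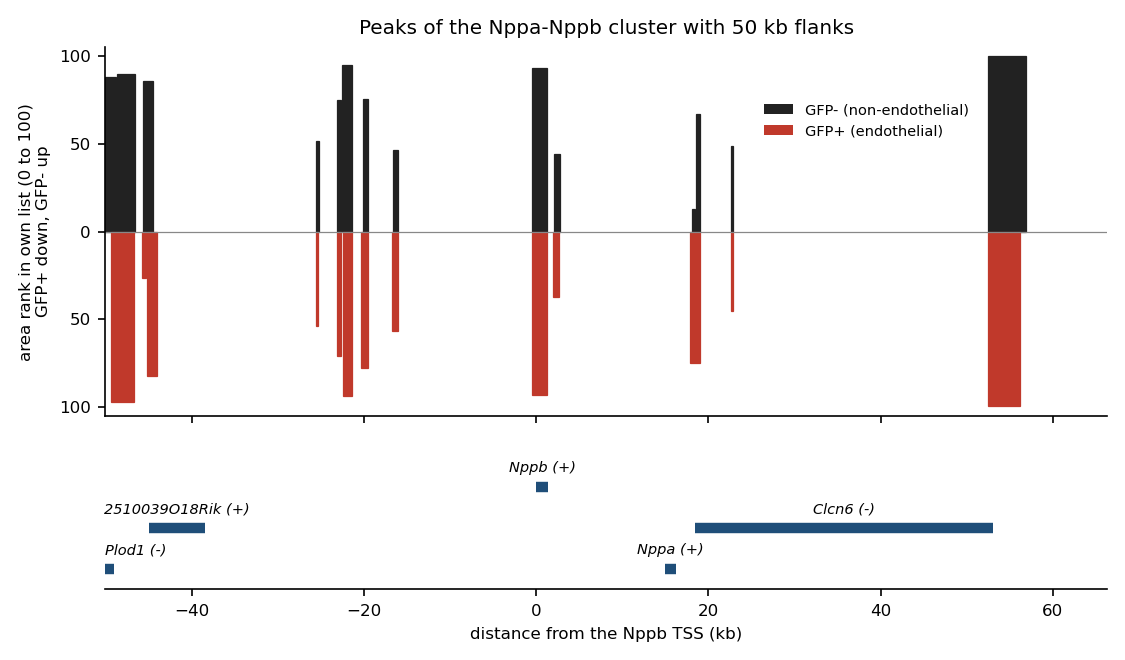
Peaks of the cluster against distance from the *Nppb* TSS in kb, with bars spanning each peak, their height the area rank (0 to 100) in the peak's own list, GFP- upward in black and GFP+ downward in red, and genes named in the text with their strand underneath. Bars face each other throughout the window, and none stands over *Nppa*.

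The highest ranked peak of the window away from a gene start lay in intergenic sequence upstream of *Nppb*. In GFP- it ran from 147963245 to 147964442 (rank 94.5, area 5832, summit -log10 p-value 12.8), with its summit 21771 bp before the *Nppb* start and 36705 bp before the *Nppa* start. In GFP+ it ran from 147963336 to 147964402 (rank 93.4, area 4907, summit 12.2). In each list this element therefore ranked above the *Nppb* TSS peak itself. The 200 bases around its GFP- summit, chr4:147963917-147964116 on the plus strand, are printed below, and none of the fixed words occurred in them, while the 200 bases around the GFP+ summit, 148 bp away, held a MEF2 site.
Element upstream of Nppb: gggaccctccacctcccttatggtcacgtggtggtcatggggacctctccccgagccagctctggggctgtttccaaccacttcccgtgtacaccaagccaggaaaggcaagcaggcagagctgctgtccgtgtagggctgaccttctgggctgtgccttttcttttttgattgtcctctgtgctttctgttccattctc
A group of 4 further shared regions surrounded it. Those with a GFP- peak beginning at 147960242, 147962710 and 147965679 ranked 51.8, 74.8 and 75.5 in GFP- and 53.95, 71.0 and 77.5 in GFP+. The region nearest to *Nppb* of this group, beginning at 147969223 in GFP-, ranked 46.4 in GFP- and 56.4 in GFP+, and its difference of 10.1 was the largest in the window.

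Downstream of *Nppa*, the first region sat where *Clcn6*, a chloride transporter gene on the minus strand, ends. GFP- had a weak peak from 148003871 to 148004195 (rank 12.7) and a second from 148004402 to 148004879 (rank 66.9), where GFP+ had a single peak from 148003630 to 148004773 (rank 74.8). The summed areas were close, at 1551 in GFP- and 1634 in GFP+. The weak GFP- peak and the GFP+ peak both contained position 148004014, the 5′ end of *Gm13054*, an antisense gene that overlaps *Nppa*. A further peak inside a *Clcn6* intron, with its summit 7822 bp from the *Nppa* start in GFP- and 7803 bp in GFP+, ranked 48.8 and 45.3. At the far upstream end of the window, *Plod1*, a collagen lysyl hydroxylase gene, ranked 87.9 in GFP- and 96.9 in GFP+ where 1 GFP+ peak spanned a pair of GFP- peaks whose summed area was larger, 7550 against 6776. *2510039O18Rik* ranked 85.4 and 82.1.

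*Nppc* lies on the minus strand of chromosome 1, from 86666291 to 86670571. Its TSS peak spanned 542 bp in GFP- (86670369 to 86670910, area 939.9, rank 57.8) and 1347 bp in GFP+ (86669550 to 86670896, area 1318, rank 69.65), a difference of 11.8. The longer GFP+ peak covered the stretch of a second GFP- peak, from 86669538 to 86670072 at rank 60.01, which was called apart. Summed over the region, the area was 1944 in GFP- and 1318 in GFP+, a ratio of 0.678, and ranked by this sum *Nppc* stood 8.23 points lower in GFP+. By the p-value of the summit its difference was -5.52, with -log10 values of 5.95 and 5.455. The higher area rank of *Nppc* in GFP+ thus held for the single highest peak and not for the sum of the peaks over the region.

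Upstream of *Nppc*, GFP- had a pair of peaks that the GFP+ list lacked, from 86675219 to 86675787 (rank 49.1, summit 4817 bp before the start) and from 86677673 to 86677926 (rank 22.6, summit 7263 bp before it). As the larger of these was the highest ranked peak found in only 1 list at any of the 7 genes, the 200 bases around its summit, chr1:86675288-86675487 on the plus strand, are shown. They held none of the fixed words.
Nppc upstream element: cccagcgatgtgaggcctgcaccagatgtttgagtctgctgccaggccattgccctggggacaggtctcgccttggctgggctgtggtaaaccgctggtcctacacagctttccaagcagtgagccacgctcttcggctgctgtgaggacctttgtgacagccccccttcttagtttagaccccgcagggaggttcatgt
Within 10 kb of *Nppc*, 2 of 4 GFP- peaks were shared (50%, Wilson 95% interval 15 to 85%), as was the only GFP+ peak. Peaks covered 17.2% of the *Nppc* record in GFP- and 23.9% in GFP+.

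Among the receptors, *Npr1* ranked high in both populations. The gene lies on the minus strand of chromosome 3 from 90450591 to 90465866, and its TSS peak ran from 90464748 to 90466811 in GFP- (2064 bp, area 3062) and from 90464634 to 90466951 in GFP+ (2318 bp, area 3554). The rank was 85.6 in GFP- and 88.7 in GFP+, a difference of 3.085, and the area was 1.16 times as large in GFP+. Among the TSS regions of the 6 genes this was the only ratio above 1. Of all regions in both lists, at gene starts and elsewhere, 26.9% had a ratio above 1. The difference kept its sign when peaks were ranked by summit p-value (7.84), by area per bp (4.20) and by summed area (2.715).

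A weak peak at another annotated *Npr1* start, 14093 bp into the gene by its GFP- summit, ranked 0.379 in GFP- and 15.4 in GFP+. It was near the smallest area allowed, with areas of 202 and 294. GFP+ also had an intron peak from 90460367 to 90460564 without a GFP- counterpart, at rank 2.20. It is shown whole as 1 of 2 GFP+ peaks at the 7 genes without an overlap, at chr3:90460367-90460564 on the plus strand, and it held none of the fixed words.
Npr1 intron element: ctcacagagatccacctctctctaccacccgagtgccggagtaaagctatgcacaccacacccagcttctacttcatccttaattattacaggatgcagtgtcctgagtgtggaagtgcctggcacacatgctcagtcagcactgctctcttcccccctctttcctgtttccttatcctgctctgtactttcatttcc
Beyond the 3′ end of *Npr1*, an intergenic peak beginning at 90446271 in GFP- ranked 91.6 in GFP- and 91.0 in GFP+, above the *Npr1* TSS peak in each list. A peak in the locus at the start of *Ilf2*, a neighbouring gene, ranked 92.6 and 91.4.

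*Npr2* lies on the plus strand of chromosome 4 from 43631935 to 43651244. A GFP- peak of 2496 bp, from 43629917 to 43632412, covered its start and the stretch upstream (area 5434, rank 93.7, position 4991). In GFP+ the same stretch was divided into a TSS peak from 43631133 to 43632441 (area 2317, rank 81.65) and an upstream peak from 43630237 to 43631020 (area 1246, rank 68.1). The rank difference of the TSS peak was -12.0. Counting both GFP+ peaks, the summed area of 3563 was 0.656 of the GFP- area, and the rank by summed area differed by -5.38. The difference stayed negative by summit p-value (-12.04) and by area per bp (-11.16), so *Npr2* ranked lower in GFP+ by each of these 4 measures. The summits lay 1533 bp upstream of the start in GFP- and 512 bp in GFP+, so the summit p-values belong to different sites. No peak lay in the *Npr2* record beyond the one over its start in either list, and peaks covered 2.475% of the record in GFP- and 2.63% in GFP+.

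*Npr3* lies on the minus strand of chromosome 15 from 11839896 to 11907287. At its start GFP- had a peak of 430 bp, from 11907112 to 11907541 (area 615, rank 42.8), and GFP+ one of 1468 bp, from 11906079 to 11907546 (area 1149, rank 66.1). The difference of 23.3 was the largest among the 7 genes. The GFP+ peak also covered a second GFP- peak, from 11906048 to 11906986 at rank 62.65, which lies over another annotated *Npr3* start. With all annotated starts used, the ranks were 62.65 and 66.1, a difference of 3.44. The summed area of the region was 1708 in GFP- and 1149 in GFP+, and by this sum *Npr3* stood 9.055 points lower in GFP+. Its summit was also the weaker in GFP+, with a -log10 p-value of 4.06 against 5.415 and a rank of 15.6 against 46.3. The GFP+ peak at the *Npr3* start was thus longer and lower.

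Closest to *Npr3* in its pair of TSS ranks, by Euclidean distance over the 2 populations, were *Csrp1* (0.581 rank points), *Klhl6* (1.002), *Igsf6* (1.08), *Krt222* (2.13) and *Fam83g* (2.52). The nearest of them, *Csrp1*, ranked 42.9 in GFP- and 65.5 in GFP+. Of the other listed endocardial markers, *Plvap* had a TSS peak only in GFP+, at rank 47.9, and *Nfatc1* ranked 99.6 in GFP- and 91.3 in GFP+. The list as a whole therefore did not move one way at the 5′ end, and the part of endocardial nuclei in the *Npr3* values was not tested.

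An intron of *Npr3* held a compact element that ranked far above its start in both populations. It ran from 11878335 to 11878820 in GFP- (486 bp, area 2921, rank 84.85) and from 11878331 to 11878961 in GFP+ (631 bp, area 3010, rank 86.0). Its GFP- summit lay 28691 bp into the gene, with a -log10 p-value of 10.6 in GFP- and 10.9 in GFP+. This element was at least as strong in GFP+ by area, by rank and at the summit. Its area per bp was lower in GFP+, where the peak was longer. At the start, the area and rank of the TSS peak were also higher in GFP+, but its summit and the summed area were lower. Its 200 bases around the GFP- summit, chr15:11878496-11878695 on the plus strand, held none of the fixed words, and the window around the GFP+ summit held TAAGTG.
Npr3 intron element: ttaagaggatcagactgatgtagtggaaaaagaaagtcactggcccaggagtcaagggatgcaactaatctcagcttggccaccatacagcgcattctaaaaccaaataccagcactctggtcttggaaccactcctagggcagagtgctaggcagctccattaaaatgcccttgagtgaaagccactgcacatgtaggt
Another shared region about the first exons, with a GFP- peak beginning at 11903935, ranked 50.1 in GFP- and 59.3 in GFP+. All 3 regions at *Npr3* with peaks in both lists thus ranked higher in GFP+ by their highest peak, while a weak peak from 11909972 to 11910175, upstream of the gene, was called in GFP- alone at rank 3.75.

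*Corin*, the longest of the 7 genes at 204449 bp, lies on the minus strand of chromosome 5 from 72300025 to 72504473. Its TSS peak spanned 2151 bp in GFP- (72502753 to 72504903, area 3445, rank 87.4) and 1838 bp in GFP+ (72503018 to 72504855, area 2418, rank 82.4). The difference was -5.01, the ratio of areas 0.702 and the difference by area per bp -11.15. By the summit p-value alone *Corin* stood higher in GFP+, by 6.08 points, with -log10 values of 5.25 and 5.48. These summits lay 440 bp apart, so the p-values belong to different sites.

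Across the *Corin* locus, with 10 kb at either end, the peaks formed 14 regions, 12 of them in both lists. The highest rank was lower in GFP+ in 11 of these 12 regions and higher in 1, with a median difference of -9.16 and a range from -19.3 to 8.98. Over all shared regions the median was -1.80, and 35.4% ranked higher in GFP+. The ratio of GFP+ to GFP- area had a median of 0.708 over the *Corin* regions and of 0.857 over all shared regions. Ranked by summit p-value, 2 of the 12 stood higher in GFP+ and the median was -12.9. Over all shared regions, 18815 of 53996 stood higher by that ranking and the median was -2.11. A region from 72442652 to 72444185 counted among the lower ones, at ranks of 68.4 and 56.0, because GFP+ divided it into 2 peaks, although its summed area was 1345 in GFP- and 1430 in GFP+. The exception by rank was a weak region upstream of the start, at rank 26.05 in GFP- and 35.0 in GFP+. As the regions share a gene and 1 list per population, they are not replicates.

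The highest ranked *Corin* element away from the start lay in an intron, from 72411709 to 72412561 in GFP- (rank 84.3, area 2830) and from 72411751 to 72412498 in GFP+ (rank 80.7, area 2201). Its summits, 92236 and 92241 bp into the gene, lay 5 bp apart. The 200 bases around the GFP- summit, chr5:72412137-72412336 on the plus strand, contained a MEF2 site, in capitals, for the muscle transcription factors of that name.
Corin intron element: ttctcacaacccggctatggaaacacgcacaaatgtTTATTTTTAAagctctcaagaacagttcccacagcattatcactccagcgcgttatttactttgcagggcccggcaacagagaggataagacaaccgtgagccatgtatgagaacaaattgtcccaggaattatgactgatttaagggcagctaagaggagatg
Another intron element, beginning at 72446075 in GFP-, ranked 82.2 in GFP- and 79.2 in GFP+, and a peak with its summit in a coding exon, beginning at 72434987, ranked 74.0 and 73.7. These strong elements differed least, by -3.62, -3.00 and -0.261. Weaker intron peaks differed more, such as those beginning at 72350406, with ranks of 32.2 and 12.8, and at 72498192, with ranks of 38.75 and 21.1. At the bottom of the ranks, a peak from 72452753 to 72452989 was found in GFP- alone (rank 4.07) and a peak from 72405805 to 72405972 in GFP+ alone (rank 3.81). Peaks covered 4.17% of the *Corin* record in GFP- and 3.39% in GFP+.

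**Figure D3:**
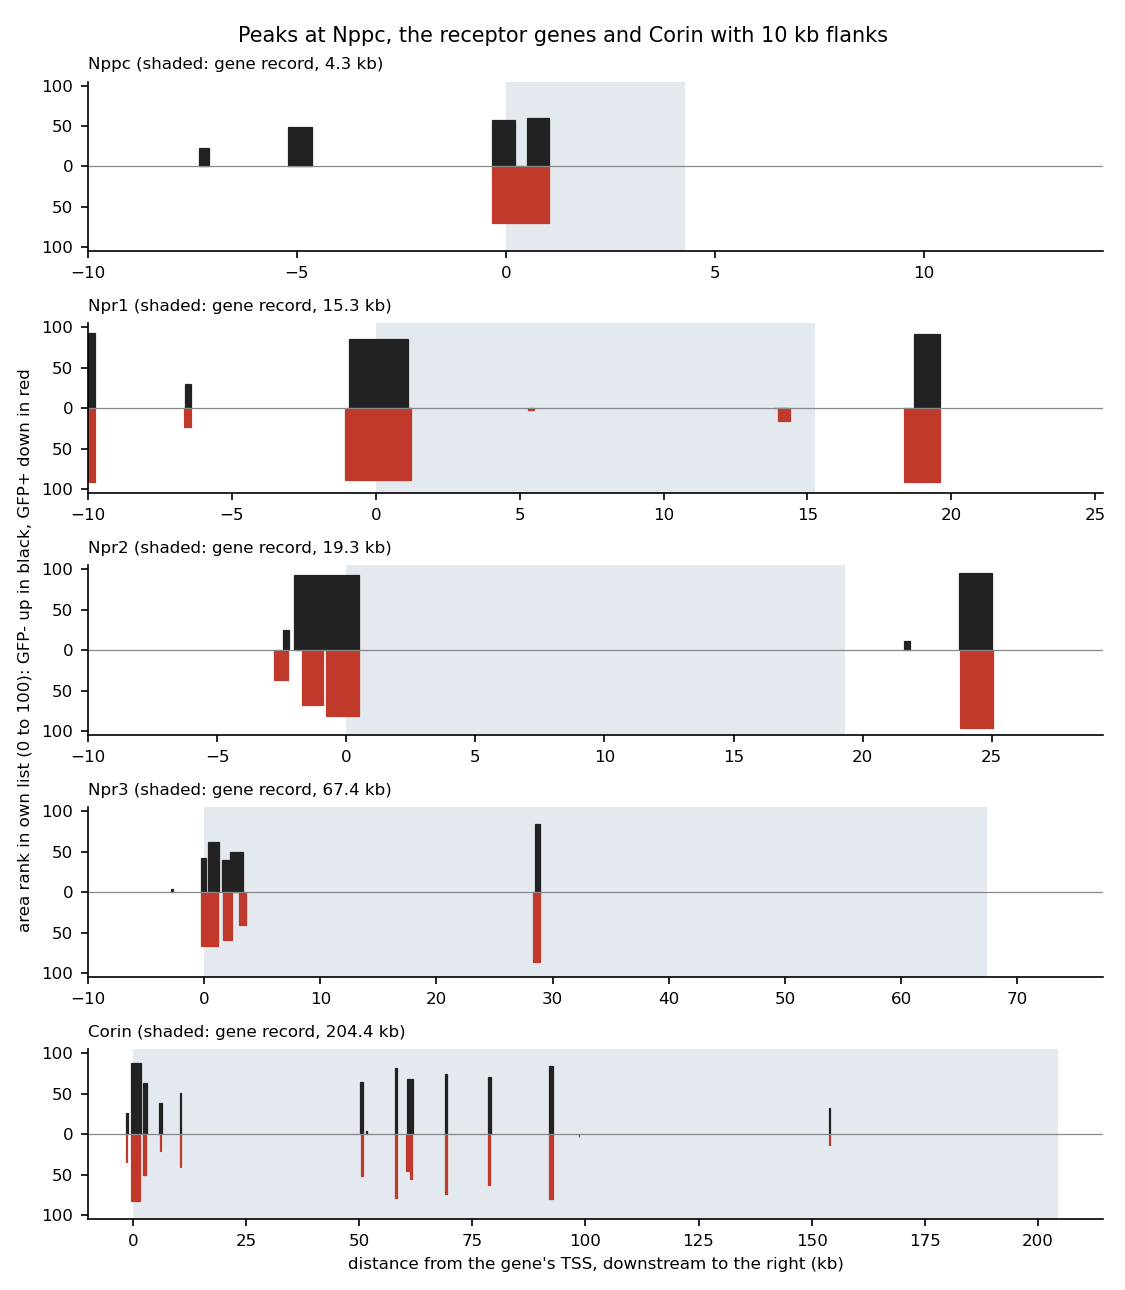
Peaks at *Nppc*, *Npr1*, *Npr2*, *Npr3* and *Corin* against distance from each gene's TSS in kb, with downstream to the right, the gene record shaded and the area rank (0 to 100) in the peak's own list as bar height, GFP- upward in black and GFP+ downward in red. Single red bars face a pair of black bars at the starts of *Nppc* and *Npr3*, and *Corin* shows intron peaks in both lists with mostly shorter red bars.

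Taking the 7 genes with 10 kb at either end, 32 of 37 GFP- peaks (86.5%, Wilson 95% interval 72.0 to 94.1%) and 31 of 33 GFP+ peaks (93.9%, 80.4 to 98.3%) were shared. The interval of the GFP- share lay above the share of all GFP- peaks given earlier, while that of the GFP+ share included its own. With an overlap of 50% of each peak required, the GFP- share was 64.9% (48.8 to 78.2%) against 60.7% of all GFP- peaks, and the interval no longer lay above it. The 5 GFP- peaks without an overlap were the pair upstream of *Nppc*, the weak ones at *Npr3* and *Corin* and a peak at the start of *Spag8* in the *Npr2* locus (rank 11.6), and the 2 GFP+ ones were the weak intron peaks of *Npr1* and *Corin*. Ligand loci shared 7 of 9 GFP- peaks (77.8%, 45.3 to 93.7%) and all 5 GFP+ peaks (56.55 to 100%). Receptor loci shared 13 of 15 (86.7%, 62.1 to 96.3%) and 13 of 14 (92.9%, 68.5 to 98.7%). Neighbouring peaks of a gene are not replicates, so the intervals test neither the difference between ligand and receptor loci nor that from all peaks. Under the 50% overlap the ligand loci shared 33.3% of GFP- (12.1 to 64.6%) and 60% of GFP+ peaks (23.1 to 88.2%). The receptor loci then shared 66.7% (41.7 to 84.8%) and 71.4% (45.35 to 88.3%). *Corin* shared 12 of 13 and 13 of 14.

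The rank differences of the ligand and receptor genes overlapped. At the TSS, the ligand genes with a peak differed by -0.233 (*Nppb*) and 11.8 (*Nppc*), with a median of 5.795, and the receptor genes ranged from -12.0 to 23.3 with a median of 3.085, so the smaller group lay within the range of the other. Both medians turned negative under other rankings, to -2.93 and -12.04 by summit p-value and to -4.4 and -5.38 by the summed area of the region, a ranking chosen after the data had been seen. Over regions in both lists, 2 of 5 at ligand genes and 7 of 11 at receptor genes ranked higher in GFP+ by area, and 1 and 4 did so by summit p-value. The 11 include the starts of *Ilf2* and *Hint2*, which are neighbours of *Npr1* and *Npr2*. The 7 loci together had 10 regions higher and 18 lower in GFP+, a median difference of -2.085. Of all regions in both lists, 35.4% ranked higher in GFP+ by area, with a median difference of -1.80. By summit p-value, 18815 of 53996 did so. The count by area at the 7 loci was thus near the share of all regions.

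**Figure D4:**
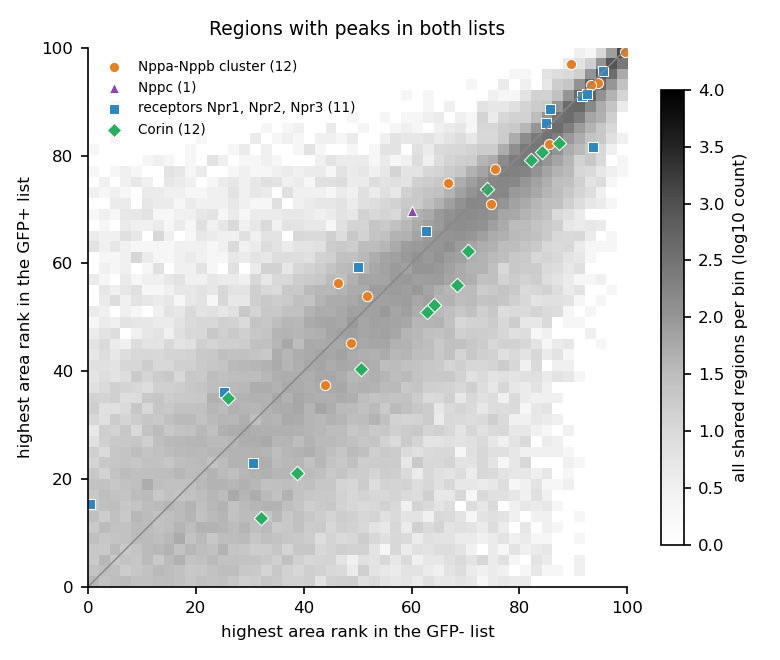
Highest area rank of each region with peaks in both lists, GFP- on the x axis and GFP+ on the y axis, for the cluster (orange circles), *Nppc* (purple triangle), the receptors (blue squares) and *Corin* (green diamonds), over all such regions in grey (log10 count per bin), with a line at equal rank. Of the 12 *Corin* regions, 11 lie below the line, while the 12 cluster regions lie on either side of it. Of all such regions, 34875 of 53996 lie below the line.

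In the 200 bases around the peak summits of the 7 loci, the fixed words rested on few windows each. AGATAA lay in 3 of 37 GFP- windows (8.11%, against 8.965% of all GFP- peaks) and 2 of 33 GFP+ windows (6.06%, against 8.875%). The MEF2 site lay in 2 GFP- windows (5.405%, against 4.98%) and 2 GFP+ windows (6.06%, against 5.44%), all of them in *Corin*. The ETS word CAGGAAGT, bound by a family that includes endothelial regulators, occurred in no window of the 7 loci, against 2.895% of all GFP- and 3.18% of all GFP+ peaks. It did occur in the cluster, in the shared region whose GFP- peak begins at 147962710, next to the strongest element. The NKX2 word TAAGTG lay in 0 GFP- windows and 1 GFP+ window (3.03%), against 6.70% of all GFP- and 6.72% of all GFP+ peaks, and CAAGTG in 5 (13.5%, against 13.46%) and 4 (12.1%, against 13.1%). The T-box word GGTGTGA lay in 2 windows of each list (5.405 and 6.06%), against 2.68% and 2.81%. The AP-1 word TGACTCA, with TGAGTCA its reverse complement, also lay in 2 of each (5.405 and 6.06%), against 7.79% and 5.89%. The SOX word CCATTGT lay in 1 and 2 windows (2.70 and 6.06%), against 2.19% and 2.82%, the TEAD word CATTCCA in 1 and 1 (2.70 and 3.03%), against 4.61% and 4.08%, and the CArG box of SRF in none, against 1.12% and 1.08%. A word is a run of letters, and its presence was not a measure of binding.

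The genes that act before and after the receptors were read the same way. The list held 20 genes for peptide processing and breakdown, cyclic GMP effectors and phosphodiesterases, the nitric oxide branch that also makes cyclic GMP, and cyclic GMP targets. Both lists had a TSS peak for 13 of them, GFP- alone for 2 and neither list for 5. Among the 15 with a peak, with an absent peak set to rank 0, 12 (80%) ranked lower in GFP+ and 3 higher. Over all 12577 genes with a TSS peak in either list, 71.6% ranked lower, a share near that of the list. The median difference was -6.10 in the list and -0.834 over all these genes. At least 10 points lower were 4, and at least 10 points higher were 2, where 12.5% and 3.57% of all such genes were.

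The genes at least 10 points lower in GFP+ were 3 that encode subunits of soluble guanylyl cyclase, the nitric oxide receptor, and 1 phosphodiesterase. *Gucy1a1* had a TSS peak in GFP- (rank 72.0) and none in GFP+. *Gucy1a2* ranked 89.4 in GFP- and 52.1 in GFP+, and *Gucy1b1* 80.2 and 44.3. *Pde9a*, which encodes a phosphodiesterase specific for cyclic GMP, ranked 91.5 in GFP- and 47.0 in GFP+. In the opposite direction, *Nos3*, the gene of endothelial nitric oxide synthase, ranked 39.4 in GFP- and 85.5 in GFP+, and *Dpp4*, a peptidase gene, 34.35 and 48.3. *Prkg2*, a cyclic GMP-dependent kinase gene, had a weak peak at its 5′ end in GFP- alone (rank 3.34). The kinase of heart and vessel, *Prkg1*, ranked 96.7 and 87.0, and the cyclic GMP target genes *Vasp* and *Ppp1r12a* were near 98 in both lists, so the pathway genes differed in size and direction. With all annotated starts used, 19 of the 20 genes had a peak and 6 ranked at least 10 points lower, *Mme* (82.7 and 65.2) and *Ide* (51.8 and 33.9), genes of peptide-degrading enzymes, among them. Of all 21728 protein-coding genes, 13624 then had a peak, and 1651 of these ranked at least 10 points lower.

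**Figure D5:**
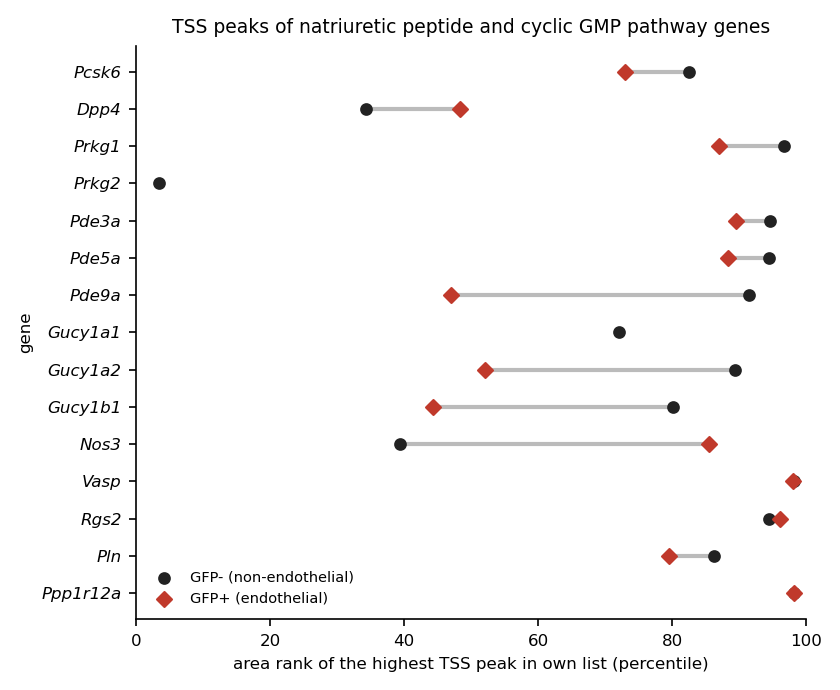
Area rank (0 to 100, x axis) of the highest TSS peak of the 15 pathway genes with one, GFP- as black circles and GFP+ as red diamonds, with no diamond where GFP+ had no peak. The soluble guanylyl cyclase genes and *Pde9a* extend to the left in GFP+, and *Nos3* to the right.

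Marker genes listed for the cell types of the heart were read beside these values. Of the endothelial list, 4 of 6 ranked at least 10 points higher in GFP+ at the 5′ end, *Cdh5* among them (18.0 in GFP- and 85.3 in GFP+), *Tek* ranked lower (81.1 and 54.05) and *Pecam1* had a peak only at another start, in GFP+. Of all genes with a TSS peak in either list, 3.57% ranked at least 10 points higher in GFP+. The fibroblast list had a TSS peak in GFP- for 5 of 5 genes and in GFP+ for none at the 5′ end. Of all 21728 protein-coding genes, 675 had a TSS peak in GFP- alone. With all annotated starts used, GFP+ had peaks for 2 of these 5, *Pdgfra* at rank 87.05 and *Col1a1* at 80.7. The GFP- ranks of these genes were then higher, at 96.5 and 95.65. All 6 cardiomyocyte markers had TSS peaks in both populations, against 53.8% of all protein-coding genes, with differences from -11.3 to 8.44. Pericyte and smooth muscle genes had 3 of 4 in GFP- and 1 in GFP+, and *Acta2* had a peak only at another start, in GFP- (rank 27.65). Of the macrophage list *Cd68* alone had a peak, in both. The part that cell types other than endothelial cells play in the GFP+ peaks of *Nppb*, *Corin* and the other genes was not tested.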

How the data were processed

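ATAC-Seq was done on GFP- and GFP+ heart nuclei with 2 replicates of each. Reads were trimmed by the authors (fastp) and aligned to mm10 using Bowtie2 (2.3.5.1 in the submitters' processing notes), after which low-quality reads and duplicates (Picard) were removed, libraries were downsampled to even depth, and Genrich in ATAC mode gave 1 list per population from both replicates, leaving out chrM, chrY and blacklisted regions. Each deposited peak has an area, which is a signal the caller sums along the peak, a score, which stops at 1000 (so do 83.9% of GFP- and 82.05% of GFP+ peaks), and the -log10 p-value of its summit, all as deposited. No deposited area was under 200. Depth per library is unknown from the lists, so no precision per value can be given.

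From the lists, ranks by area, overlaps of at least 1 bp and merged regions were computed with Python 3.11.15, numpy 2.4.6 and pandas 2.3.3. Figures used matplotlib 3.10.9. TSSs came from GENCODE M21, promoters from RefSeq. Because GFP+ nuclei yielded the shorter list and ranks are relative to each list, equal ranks need not mean equal accessibility. The 7 genes, gene lists and words were chosen with earlier results of these data known. Named were the 7 genes, the protein-coding genes of the cluster window (1 of which is not reported here), pathway genes that differed by 10 points or had a peak in 1 list, and the 5 genes closest to *Npr3* by rank, with a few others named for context. Overlap, merging, ranking and word search were tested on simulated data. Alternatives changed the ranking measure, TSS window and starts, overlap, area threshold, flanks and word windows.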

Additional observations from a re-analysis of the deposited data

How the results depend on the processing

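Of 81 alternative values, 11 changed sign, 21 others moved past the tolerance and 49 did not, where the tolerance was the Wilson interval for a share, a factor of 1.5 for a count and the counting error of the ranks for a rank difference. Shares of few peaks have wide intervals and could move far within it. Ranked by summit -log10 p-value, the rank differences of *Nppc* (-5.52), *Npr3* (-30.8), *Corin* (6.08), the ligand median (-2.93) and the receptor median (-12.04) reversed. By this ranking 8 pathway genes were at least 10 points lower and 1 higher in GFP+, with no share of all genes to set beside these counts. By area per bp, *Nppc* (-32.9) and *Npr3* (-27.9) reversed. By summed area of the region, chosen after seeing the data, *Nppc* (-8.23), *Npr3* (-9.055), the ligand median (-4.4) and the receptor median (-5.38) reversed. At *Nppc* and *Npr3* the GFP+ list drew 1 peak where the GFP- list drew 2. With 50% reciprocal overlap, 64.9% of GFP- and 72.7% of GFP+ peaks of the 7 loci were shared, with 33.3% and 60% at the ligand loci and 66.7% and 71.4% at the receptor loci, beside 60.7% and 73.65% over the whole lists. With peaks of at least the median area, the shares at the 7 loci were 95.2% and 100%, and within the gene records alone the GFP- share was 95.65%. No share over all peaks was taken for either setting, so these values cannot be set against the shares of the unfiltered lists. With windows of 400 bp, AGATAA lay in 8 GFP- and 6 GFP+ windows, and 17.6% and 17.1% of all peaks then held it. No paired analysis was possible because each list pools both replicates, and for the same reason no replicate could be left out. Depth was not in the lists, so weak peaks near the smallest area, such as those found in 1 list only at *Npr1*, *Npr3* and *Corin*, have no error.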
